A study of Mus musculus with 8 samples.

Results

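The Wnt ligands, their receptors and coreceptors, and the secreted proteins that tune them were followed by the accessibility of their loci in a mouse breast cancer line and 3 drug-resistant derivatives. The set holds 43 genes: 19 Wnt ligands, 10 Frizzled receptors, the LRP coreceptors Lrp5 and Lrp6, the receptors Ror1, Ror2 and Ryk, the R-spondin receptors Lgr4, Lgr5 and Lgr6, the R-spondins Rspo1, Rspo2 and Rspo3, and the Dickkopf proteins Dkk1, Dkk2 and Dkk3. A consensus region (an interval where at least 1 line had a peak) was given to a gene when that gene's body was the nearest of all protein-coding genes and the region lay inside it or at most 50 kb away. This placed 176 of the 57417 consensus regions (build mm10) at 40 of the 43 genes, and Wnt3, Fzd10 and Dkk1 had no region. The count summed over a gene's regions is called its locus value here, in CPM (counts scaled to a common library size). It measures open chromatin in and near the gene, not expression. Values of single regions are scaled by factors of the region table, which for the PB3-ERI-R libraries are 0.8023 and 0.8584, against 0.9225 and 0.9849 in the locus table, so a region's CPM can exceed that of its locus and the 2 scales are not to be subtracted.

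Wnt proteins are secreted, lipid-modified ligands that bind Frizzled receptors at the cell surface. With the coreceptors LRP5 and LRP6 they stabilise beta-catenin, which acts with TCF/LEF factors on target genes, while binding with ROR1, ROR2 or RYK feeds beta-catenin-independent branches that steer cell polarity and movement. R-spondins bind the LGR4, LGR5 and LGR6 receptors and keep Frizzled and LRP receptors at the surface, and Dickkopf proteins such as DKK1 and DKK2 bind LRP5 and LRP6 and block them. In the mammary gland, Wnt signalling is known for its part in ductal growth and in the upkeep of basal stem cells, and Wnt1 was found as a gene activated by a mouse mammary tumour virus.

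Chromatin accessibility had been profiled by ATAC-seq, in which the Tn5 transposase inserts adapters into open DNA, in nuclei of PB3 cells labelled Er-/Pr-/Her2-. The lines were PB3-ERI-R, PB3-PAC-R and PB3-VIN-R, made resistant to eribulin, paclitaxel and vinorelbine at 300, 500 and 800 nM of the drug, and the untreated PB3-Parental. Eribulin and vinorelbine hinder microtubule growth and paclitaxel stabilises microtubules. The labels call the derivatives clones, and how many clones each line holds, and whether drug was present at harvest, is not stated in the labels. The series title poses the question of whether treatment moves such cells from a mesenchymal to an epithelial state. Each line had 2 libraries, with no label saying that they came from separate cultures, so a p-value here weighs a difference only against the spread of libraries that may be technical repeats.

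Libraries held 10521964 to 24052237 counts over the consensus regions, the 2 deepest being those of PB3-VIN-R. Among marker lists, the summed locus value of 6 breast epithelial genes was 808 and 693 CPM in PB3-ERI-R, against 452 and 336 CPM in PB3-Parental, and that of 5 mesenchymal genes was 416 and 387 CPM in PB3-ERI-R, against 549 and 541 CPM in PB3-Parental. Not all genes moved with their sum. The epithelial Krt8 and Krt18 had log2 fold changes of 0.21 and -0.21, the mesenchymal Fn1 of 0.02, and the mesenchymal Twist1 rose by 0.64. The other genes of these lists moved with their sum. Loci of macrophage genes (3 of 5 with a region, Adgre1 and Cd68 without) summed to 12.8 and 14.8 CPM in PB3-ERI-R, against 107 and 85.7 CPM in PB3-Parental. Endothelial genes (3 of 4, Cdh5 without) summed to 67.9 and 67.5 CPM in PB3-ERI-R, against 127 and 139 CPM in PB3-Parental, and adipocyte genes (3 of 3) to 23.3 and 23.9 CPM in PB3-ERI-R, against 42.7 and 43.1 CPM in PB3-Parental. The endothelial Pecam1 did not follow its sum, averaging 53.0 CPM in PB3-ERI-R, against 57.1 CPM in PB3-Parental (log2 fold change -0.11, not called). Tek averaged 11.8 CPM in PB3-ERI-R, against 46.1 CPM in PB3-Parental. T and B cell genes (1 of 4, with Cd3e, Cd4 and Ms4a1 without a region) stood at 1.29 and 1.93 CPM in PB3-ERI-R, against 4.76 and 4.49 CPM in PB3-Parental. The part of these shifts in the Wnt results was not tested. Of the receptors the label gives as negative, Pgr had no region. The Esr1 locus averaged 44.2 CPM in PB3-ERI-R, against 77.5 CPM in PB3-Parental, and Erbb2 62.9 CPM in PB3-ERI-R, against 33.7 CPM in PB3-Parental.

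The promoters below, 250 bases 5′ of a RefSeq transcription start (GRCm38.p6, the assembly of mm10), show the DNA of start sites that opened or closed in PB3-ERI-R. Lgr6 and Wnt9b were picked by rule, as members past a log2 fold change of 1 whose start lay in a region that also passed it. Ror2, whose start closed most, and Lgr4, whose start was open in every library, were added after their values were seen. Capitals mark the single match to 1 of 3 motifs searched on both strands: CTTTGA followed by A or T (TCF/LEF, the nuclear partners of beta-catenin), TGANTCA (AP-1, Fos and Jun dimers) and ACCGGTT (Grainyhead-like, epithelial factors).
Lgr6, chr1:135105277-135105526, minus strand: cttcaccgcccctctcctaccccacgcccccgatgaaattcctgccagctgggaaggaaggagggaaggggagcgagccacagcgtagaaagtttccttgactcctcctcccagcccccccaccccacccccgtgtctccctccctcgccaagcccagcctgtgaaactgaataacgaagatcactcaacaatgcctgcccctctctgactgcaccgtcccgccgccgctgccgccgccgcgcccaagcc
Wnt9b, chr11:103749822-103750071, minus strand: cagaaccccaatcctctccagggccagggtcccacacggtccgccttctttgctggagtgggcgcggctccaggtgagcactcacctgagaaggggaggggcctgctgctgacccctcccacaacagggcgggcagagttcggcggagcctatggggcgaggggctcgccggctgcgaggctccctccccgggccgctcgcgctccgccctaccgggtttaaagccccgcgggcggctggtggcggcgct
Ror2, chr13:53286125-53286374, minus strand: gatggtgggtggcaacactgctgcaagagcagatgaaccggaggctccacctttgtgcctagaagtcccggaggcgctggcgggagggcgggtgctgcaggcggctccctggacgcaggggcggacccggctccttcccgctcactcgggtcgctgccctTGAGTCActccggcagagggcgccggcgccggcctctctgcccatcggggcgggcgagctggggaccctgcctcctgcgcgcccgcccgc
Lgr4, chr2:109917397-109917646, plus strand: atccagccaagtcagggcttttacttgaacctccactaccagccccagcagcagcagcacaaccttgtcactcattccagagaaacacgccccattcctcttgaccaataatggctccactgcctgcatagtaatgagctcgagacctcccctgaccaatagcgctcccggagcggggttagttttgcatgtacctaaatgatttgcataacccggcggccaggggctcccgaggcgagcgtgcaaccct
The AP-1 match at the Ror2 start began at base -90, counting back from the start, and the other 3 promoters held no match. All 250 bases of the Lgr6, Wnt9b and Lgr4 windows lay in a consensus region, and 236 of those of Ror2. A TCF/LEF match stood in 7.48% of the 32851 mouse promoters in the table and in 3 of the 32 entries of members (29 genes): Wnt5b, Wnt11 and Dkk1. An AP-1 match stood in 6.75% of all promoters and in 2 entries of members, Wnt5b and Ror2, and a Grainyhead-like match in 0.831% of all and in none of the 32. A match is only a match of letters. Promoters of members were rich in G and C, with a median of 67.4% and 22.0 CG dinucleotides, against 52.4% and 6.0 over all promoters.

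In PB3-ERI-R against PB3-Parental, the loci of the Wnt system moved both ways and by large amounts. Among ligand loci Wnt2, Wnt5a and Wnt10b fell most, while Rspo1, Rspo3, Wnt8b and Wnt9b opened and most Frizzled loci gained. The results for Wnt10b, Wnt9b and the Frizzled loci depend on which regions are counted, as given below. Of the 40 loci, 27 passed an adjusted p of 0.05 (edgeR's quasi-likelihood test, Benjamini-Hochberg over all 14903 loci), 15 higher and 12 lower. That is 67.5% of the members, where 58.5% of all loci passed, 28.7% higher and 29.8% lower, so the share is not far from that of any gene in this line. A log2 fold change of 1 or more either way was called for 14 members, and for 28.9% of all loci. The median log2 fold change was 0.15 over the 40 loci and 0.01 over all loci. In bulk libraries a lower value can come from fewer cells with an open region or from a less open region in each cell, and these cannot be told apart.

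**Figure D1:**
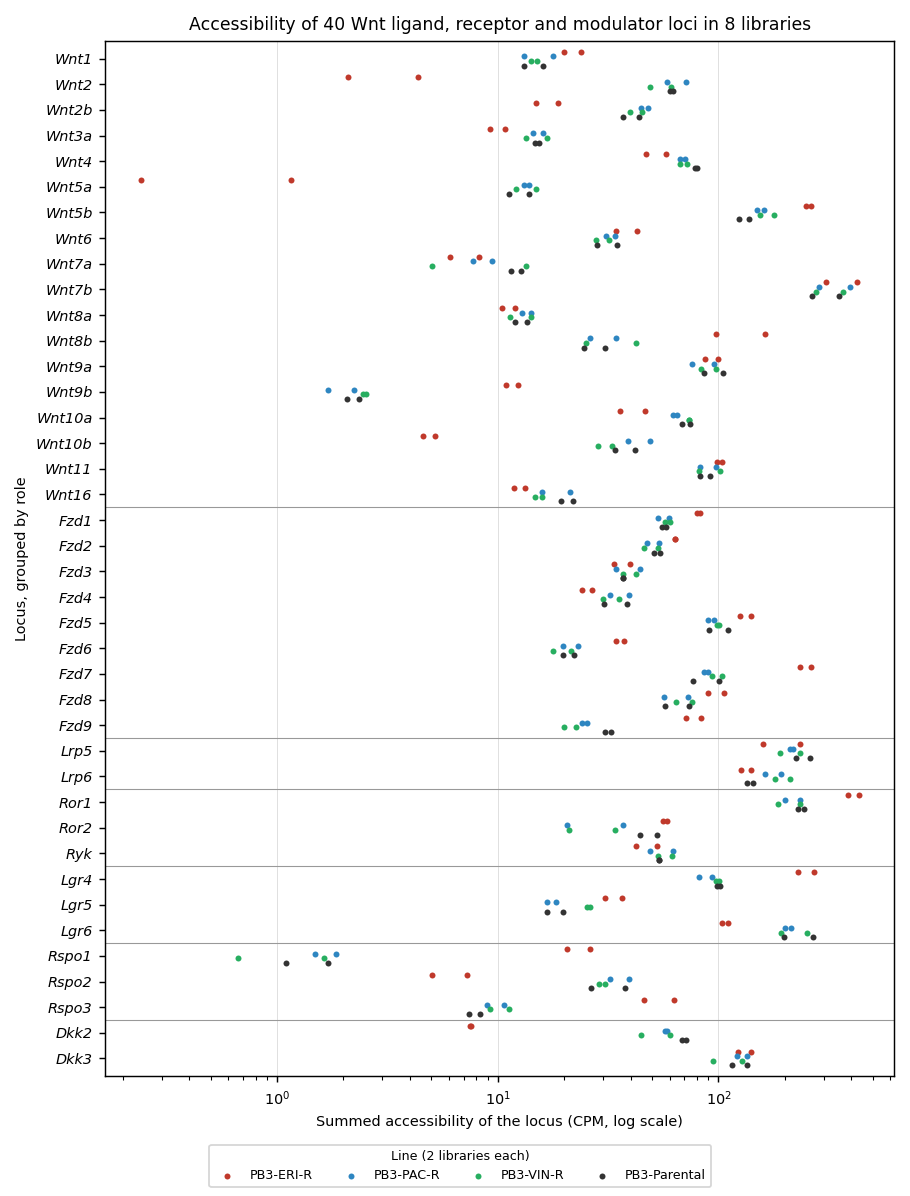
Locus value (summed CPM over a gene's regions, log axis) of the 40 members with a region, in each of 8 libraries, coloured by line and grouped by role from ligands at the top to Dickkopf proteins at the bottom. The PB3-ERI-R points stand clear of the other 6 for loci such as Wnt2 (2.1 and 4.34 CPM) and Rspo1 (26.1 and 20.6 CPM), while the other 3 lines overlap.

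Among ligands, 8 of 18 loci fell, 4 rose and 6 were not called, where 29.8% of all loci fell and 28.7% rose. Counted over every region within 50 kb of a gene, whichever gene is nearest, 5 ligand loci fell and 5 rose. Wnt2, a ligand of the beta-catenin branch in lung and mesenchyme, had 2.1 and 4.34 CPM in PB3-ERI-R, 58.6 and 71.3 CPM in PB3-PAC-R, 61.2 and 49.0 CPM in PB3-VIN-R, and 60.1 and 62.5 CPM in PB3-Parental. Both PB3-ERI-R libraries lay far under the other 6, and the locus fell by 4.28 ± 0.25 on the log2 scale (adjusted p = 2.04e-07). Its 2 regions stood 6.11 and 6.75 kb past the gene's 3′ end, the nearer at chr6:17978972-17979366, with 0.464 and 1.22 CPM in PB3-ERI-R, against 17.9 and 21.5 CPM in PB3-Parental. The median over the regions of the same 10 Mb window was -0.50 on the log2 scale. Per kb of region, Wnt2 was the most open of the 40 loci in PB3-Parental, with 4.02 CPM per kb in PB3-ERI-R, against 76.6 CPM per kb in PB3-Parental.

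Wnt5a, the best known ligand of the beta-catenin-independent branch, had 0.242 and 1.16 CPM in PB3-ERI-R, 13.9 and 13.1 CPM in PB3-PAC-R, 14.9 and 12.1 CPM in PB3-VIN-R, and 13.9 and 11.2 CPM in PB3-Parental. The groups did not overlap, and the locus fell by 4.22 ± 0.42 on the log2 scale (adjusted p = 8.12e-06), with the 2 PB3-ERI-R libraries themselves apart. Both of its regions lay inside the gene, and the one within 1 kb of a gene end, chr14:28505423-28505583, had 0.0929 and 0.332 CPM in PB3-ERI-R, against 6.50 and 4.06 CPM in PB3-Parental. Its close relative Wnt5b went the other way. The Wnt5b locus had 263 and 248 CPM in PB3-ERI-R, against 137 and 124 CPM in PB3-Parental (log2 fold change 0.97 ± 0.11, adjusted p = 1.80e-05). Of its 11 regions 4 gained, 4 fell and 3 were not called, and the gains sat inside the gene, led by chr6:119526456-119527061 with 71.1 and 63.3 CPM in PB3-ERI-R, against 1.93 and 0.932 CPM in PB3-Parental.

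Wnt10b, a ligand known for holding back fat cell differentiation, had 4.60 and 5.21 CPM in PB3-ERI-R, 48.7 and 38.9 CPM in PB3-PAC-R, 32.9 and 28.6 CPM in PB3-VIN-R, and 42.0 and 33.9 CPM in PB3-Parental. The PB3-ERI-R libraries were close to each other and lay under all others (log2 fold change -2.95 ± 0.20, adjusted p = 4.88e-07). Its regions flank the gene at about 2 kb on either side, and the one with the larger change, chr15:98768243-98768680, had 1.39 and 1.99 CPM in PB3-ERI-R, against 12.8 and 11 CPM in PB3-Parental. Counted instead over every region within 50 kb of the gene, whichever gene is nearest, the Wnt10b change was -0.27 and not called (adjusted p = 0.0629). Wnt2b, a relative of Wnt2, had 14.9 and 18.7 CPM in PB3-ERI-R, 47.7 and 44.7 CPM in PB3-PAC-R, 45.1 and 39.9 CPM in PB3-VIN-R, and 43.8 and 36.9 CPM in PB3-Parental. Its fall (log2 fold change -1.26 ± 0.16, adjusted p = 3.93e-05) came from 1 of 2 regions, chr3:104944821-104945535 at the gene's 3′ end. That region had 0.557 and 0.664 CPM in PB3-ERI-R, against 24.8 and 21.1 CPM in PB3-Parental (log2 fold change -5.22 ± 0.30, adjusted p = 4.14e-09), while the upstream region was not called. Over every region within 50 kb the sign turned, to 0.48, and the locus was called higher (adjusted p = 0.000907).

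Wnt8b and Wnt9b were the ligand loci that opened most. Wnt8b, a ligand of the developing forebrain, had 162 and 97.1 CPM in PB3-ERI-R, 34.3 and 26.1 CPM in PB3-PAC-R, 42.2 and 25.1 CPM in PB3-VIN-R, and 30.5 and 24.6 CPM in PB3-Parental. The PB3-ERI-R libraries differed from each other more than those of other lines but both lay above them (log2 fold change 2.23 ± 0.28, adjusted p = 4.68e-05). Its leading region, chr19:44458613-44459131, 34.3 kb upstream, had 51.7 and 27 CPM in PB3-ERI-R, against 0.361 and 0.665 CPM in PB3-Parental (log2 fold change 6.26 ± 0.44, adjusted p = 1.70e-08). A region 0.258 kb past the 3′ end of the gene rose too, by 4.84 ± 0.45 on the log2 scale. Wnt9b, which starts kidney tubule formation, had 12.3 and 10.9 CPM in PB3-ERI-R, 2.24 and 1.70 CPM in PB3-PAC-R, 2.46 and 2.53 CPM in PB3-VIN-R, and 2.35 and 2.07 CPM in PB3-Parental. Its single region, chr11:103749647-103750089, holds the whole promoter window printed above and was a peak in PB3-ERI-R alone, with a locus log2 fold change of 2.39 ± 0.26 (adjusted p = 1.35e-05). Over every region within 50 kb, whichever gene is nearest, the Wnt9b value turned to -1.28 and was called lower (adjusted p = 2.80e-06).

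Smaller changes were called at the ligand loci Wnt1, Wnt10a, Wnt16, Wnt4 and Wnt3a. Wnt1 rose (log2 fold change 0.59 ± 0.21, adjusted p = 0.0304) with 23.8 and 19.9 CPM in PB3-ERI-R, against 13.1 and 16.1 CPM in PB3-Parental, but the call was lost without either PB3-Parental replicate 1 (0.44, adjusted p = 0.176) or PB3-ERI-R replicate 1 (0.44, adjusted p = 0.186), and without a scaling factor (0.49, adjusted p = 0.0606). Wnt10a fell by 0.80, Wnt16 by 0.71, Wnt4 by 0.59 and Wnt3a by 0.58 on the log2 scale. Wnt16 had 1 region, which as a region was not called (log2 fold change -0.45, adjusted p = 0.0855), and its locus was not called without replicate 2 of PB3-Parental or of PB3-ERI-R (adjusted p = 0.0582 and 0.0622). Wnt3a lost its call without either PB3-Parental library or PB3-ERI-R replicate 1 (adjusted p = 0.0709 to 0.157). With offsets for the median change of each 10 Mb window, a rough guard against copy number, the Wnt4 change was -0.24 and not called (adjusted p = 0.101). Inside Wnt4 1 region opened, with 16.6 and 14.0 CPM in PB3-ERI-R, against 1.99 and 2.06 CPM in PB3-Parental, while the other 2 fell. Within Wnt10a chr1:74793179-74793739 had 0.464 and 1.22 CPM in PB3-ERI-R, against 18.8 and 10.8 CPM in PB3-Parental.

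The uncalled ligand loci were Wnt6, Wnt7a, Wnt7b, Wnt8a, Wnt9a and Wnt11, with log2 fold changes from -0.77 (Wnt7a) to 0.28 (Wnt6). Wnt7a was called lower when either PB3-VIN-R library was left out (-0.78 and -0.77, adjusted p = 0.0173 and 0.0153). Wnt7b was called higher with regions within 1 kb of a gene end alone (1.05, adjusted p = 0.0212). For Wnt7b, a ligand of many epithelia, the even locus value covered regions that moved apart. Its 424 and 307 CPM in PB3-ERI-R, against 352 and 264 CPM in PB3-Parental, summed 12 regions, of which 5 gained and 2 fell. The distal region chr15:85613280-85613827 had 115 and 68.9 CPM in PB3-ERI-R, against 2.23 and 1.20 CPM in PB3-Parental, and the one inside the gene at chr15:85574230-85575261 had 11.2 and 11.3 CPM in PB3-ERI-R, against 88.9 and 60.7 CPM in PB3-Parental. Wnt9a likewise had 2 gained and 2 fallen regions around a log2 fold change of -0.03.

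Some ligand genes are neighbours, a trait kept since early animal evolution, and their values are set side by side here, with no test of the difference within a pair. Wnt10b and Wnt1 lie 11.7 kb apart on chromosome 15, and Wnt10b fell by 2.95 while Wnt1 rose by 0.59 on the log2 scale. Wnt6 and Wnt10a lie 6.7 kb apart on chromosome 1, with log2 fold changes of 0.28 (not called) and -0.80. Wnt3a and Wnt9a lie 16.1 kb apart on chromosome 11, at -0.58 and -0.03 (not called). With every region within 50 kb counted for each gene, the values were -0.27 for Wnt10b and -0.24 for Wnt1, -0.51 for Wnt6 and -0.27 for Wnt10a, and 0.02 for Wnt3a and -0.07 for Wnt9a, so the contrasts depend on which neighbour a region is given to. Wnt9b overlaps the start of Wnt3, which had no region of its own.

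Of the 9 Frizzled loci with regions 6 rose and 1, Fzd4, fell, with a median log2 fold change of 0.52, where 28.7% of all loci rose and 29.8% fell. Without PB3-ERI-R replicate 1 or PB3-Parental replicate 2, 4 rose and none fell. With a distance limit of 10 kb 3 of 8 rose, and with regions within 1 kb of a gene end 2 of 8. Counted over every region within 50 kb, 5 of 9 rose and 1, Fzd2, fell. With window offsets 5 rose and 1 fell, but there Fzd3 rose, Fzd1 fell, and Fzd4 and Fzd5 were not called. At region level 17 of 25 Frizzled regions gained and 1 fell, 72.0% in all, where 73.0% of all regions passed (35.4% higher and 37.6% lower). Fzd7, the Frizzled most tied to basal mammary and triple-negative cells, had 263 and 234 CPM in PB3-ERI-R, 89.7 and 85.7 CPM in PB3-PAC-R, 104 and 93.0 CPM in PB3-VIN-R, and 101 and 76.3 CPM in PB3-Parental. Both PB3-ERI-R libraries were above the other 6 (log2 fold change 1.48 ± 0.14, adjusted p = 4.28e-06). The gain sat upstream, in 5 regions between 22.9 and 48.6 kb before the start that were peaks in PB3-ERI-R alone. The strongest, chr1:59448839-59449790, had 74.8 and 69.2 CPM in PB3-ERI-R, against 0.421 and 0.399 CPM in PB3-Parental (log2 fold change 7.43 ± 0.30, adjusted p = 8.10e-10), the largest change of the 176 regions. The other 4 changed by 5.10 to 6.68. At the start itself, chr1:59481874-59483034, the values were 78.4 and 82.5 CPM in PB3-ERI-R, against 60.7 and 51.0 CPM in PB3-Parental (log2 fold change 0.53 ± 0.14, adjusted p = 0.00333). That small gain was not called without a scaling factor (0.17) or with window offsets (0.11), and the region 0.644 kb past the gene was level (-0.04). With a distance limit of 10 kb the Fzd7 locus changed by 0.18 and was not called.

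**Figure D2:**
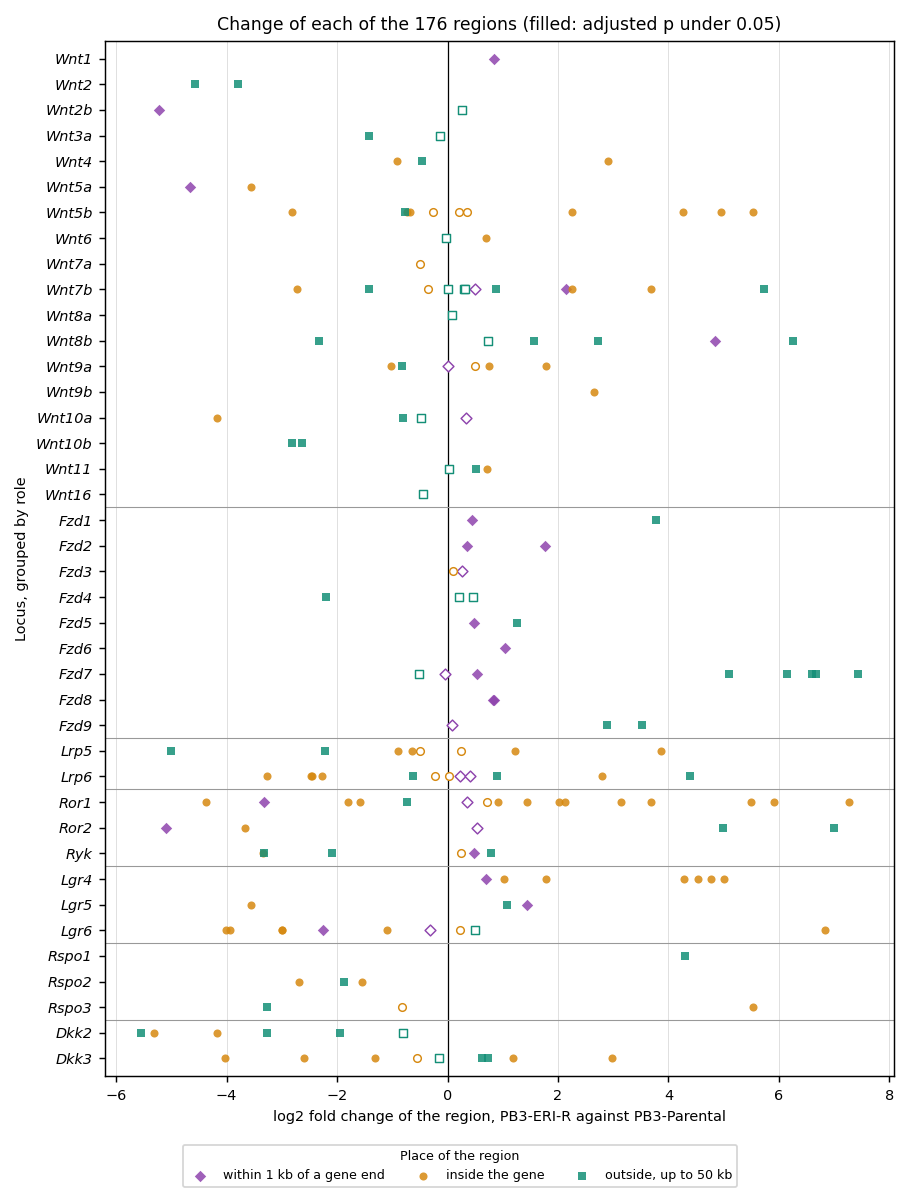
Log2 fold change in PB3-ERI-R against PB3-Parental of each of the 176 regions, by gene and role, with the place of the region as colour and shape and filled points for an adjusted p under 0.05. Fzd7 shows 5 distal regions between 5.10 and 7.43, and genes such as Ror1, Ror2 and Lgr6 have regions on both sides of 0.

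Fzd9, deleted in Williams syndrome in humans, had 83.5 and 71.5 CPM in PB3-ERI-R, 25.5 and 24.1 CPM in PB3-PAC-R, 20 and 22.7 CPM in PB3-VIN-R, and 30.6 and 32.7 CPM in PB3-Parental. The PB3-ERI-R libraries stood clear (log2 fold change 1.29 ± 0.13, adjusted p = 8.97e-06), and 2 regions about 13 kb upstream carried the gain. The leading one, chr5:135264001-135264514, had 57.2 and 43.6 CPM in PB3-ERI-R, against 7.46 and 6.26 CPM in PB3-Parental. At the Fzd9 start the change was 0.09 and not called, and with regions within 10 kb alone the locus value was -0.17. The surrounding 10 Mb window had a median log2 change of 0.80, and the start region turned to -0.77 with window offsets.

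Fzd1, a receptor of the beta-catenin branch, changed less than its surroundings. The locus had 82.6 and 79.9 CPM in PB3-ERI-R, against 57.6 and 55.5 CPM in PB3-Parental (log2 fold change 0.52 ± 0.10, adjusted p = 0.00115), but the 139 regions of its 10 Mb window had a median of 1.51, and with window offsets Fzd1 changed by -1.01. Fzd3 was level (-0.02) in a window with a median of -0.81, and changed by 0.80 with offsets. A copy number change of these windows was not tested. Fzd6 rose by 0.78, Fzd8 by 0.57 and Fzd5 by 0.40 on the log2 scale, each with a called gain within 1 kb of a gene end. For Fzd5 that gain, at its start, was not called without a scaling factor (0.13, adjusted p = 0.37), and the Fzd5 locus was not called with regions within 1 kb of a gene end (0.14, adjusted p = 0.376) or within 10 kb (0.22, adjusted p = 0.139). Over every region within 50 kb, whichever gene is nearest, Fzd6 changed by 0.11 and was not called (adjusted p = 0.513). Without PB3-Parental replicate 2 or PB3-ERI-R replicate 1, Fzd8 (adjusted p = 0.0848 and 0.103) and Fzd5 (0.124 and 0.0961) were not called. Fzd4, the receptor of norrin in retinal vessels, had 26.6 and 24.0 CPM in PB3-ERI-R, against 30.4 and 38.6 CPM in PB3-Parental (log2 fold change -0.45 ± 0.17, adjusted p = 0.0426), a call lost without either PB3-ERI-R library or PB3-Parental replicate 2 (adjusted p = 0.0719 to 0.284).

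The coreceptors Lrp5 and Lrp6 were not called, at -0.30 ± 0.17 (adjusted p = 0.160) and -0.05 ± 0.12 (adjusted p = 0.735) on the log2 scale. Lrp5 had 234 and 159 CPM in PB3-ERI-R, against 261 and 224 CPM in PB3-Parental, groups that overlap. Without PB3-ERI-R replicate 1 it was called lower (-0.61, adjusted p = 0.0162), as it was without a scaling factor (-0.40, adjusted p = 0.0332). Of their 20 regions 5 were higher and 9 lower, or 70.0%, near the 73.0% of all regions. At 6.87 kb outside Lrp5, chr19:3693450-3693896 had 0.372 and 0.886 CPM in PB3-ERI-R, against 19.4 and 20 CPM in PB3-Parental, and inside it chr19:3674156-3674662 had 36.9 and 20.6 CPM in PB3-ERI-R, against 1.99 and 1.93 CPM in PB3-Parental. At 2.73 kb outside Lrp6, chr6:134443183-134443750 had 46.6 and 38.0 CPM in PB3-ERI-R, against 1.32 and 2.73 CPM in PB3-Parental. The 2 Lrp6 regions within 1 kb of a gene end were not called (0.22 and 0.40 on the log2 scale).

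Ror1, a receptor tyrosine kinase that binds Wnt5a, had the most regions of the set, 16. Its locus had 431 and 385 CPM in PB3-ERI-R, against 245 and 229 CPM in PB3-Parental (log2 fold change 0.79 ± 0.14, adjusted p = 0.000459). Inside the gene 9 regions gained, 6 of them peaks in PB3-ERI-R alone, and 5 regions in and near the gene fell. The largest gain, chr4:100291049-100291662, had 68.8 and 50.7 CPM in PB3-ERI-R, against 0.120 and 0.665 CPM in PB3-Parental (log2 fold change 7.27 ± 0.43, adjusted p = 4.39e-09). Near the 3′ end, chr4:100443003-100443286 had 0.372 and 0.664 CPM in PB3-ERI-R, against 13.2 and 8.05 CPM in PB3-Parental. The Ror1 start was not called (0.36, adjusted p = 0.0911), and with regions within 1 kb of a gene end alone the Ror1 value was -0.52.

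Ror2, the other Wnt5a receptor of this kind, kept its summed level while its start closed. The locus had 58.7 and 56.0 CPM in PB3-ERI-R, 37.1 and 20.6 CPM in PB3-PAC-R, 34.1 and 21.0 CPM in PB3-VIN-R, and 52.4 and 43.9 CPM in PB3-Parental (PB3-ERI-R log2 fold change 0.25 ± 0.26, adjusted p = 0.439). At the start, chr13:53285409-53286360, which holds most of the Ror2 sequence printed above, the values were 0.279 and 1.11 CPM in PB3-ERI-R, against 24.0 and 21.8 CPM in PB3-Parental (log2 fold change -5.09 ± 0.48, adjusted p = 2.87e-07). An intragenic region, chr13:53248885-53249497, had 0.743 and 1.33 CPM in PB3-ERI-R, against 15.5 and 10.5 CPM in PB3-Parental. Past the 3′ end, 41.1 and 43.8 kb from the gene, 2 regions opened. The farther had 40.6 and 35.9 CPM in PB3-ERI-R, against 1.14 and 1.26 CPM in PB3-Parental. For the nearer, 261 counts in PB3-ERI-R stood against 3 counts in PB3-Parental, a ratio of 139 with a 95% counting interval of 47 to 679. With a limit of 10 kb the Ror2 locus changed by -1.89. These outer regions belong to Ror2 by distance only. Ryk, a receptor without kinase activity, was not called (-0.17 ± 0.15, adjusted p = 0.348), with 2 regions higher and 3 lower.

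All 3 R-spondin receptor loci changed, Lgr4 and Lgr5 upward and Lgr6 downward, where 58.5% of all loci changed, 28.7% higher and 29.8% lower. Lgr4, the most widely expressed of the 3, had 271 and 230 CPM in PB3-ERI-R, 93.3 and 81.2 CPM in PB3-PAC-R, 101 and 97.3 CPM in PB3-VIN-R, and 98.5 and 102 CPM in PB3-Parental (log2 fold change 1.32 ± 0.11, adjusted p = 2.53e-06). All 7 of its regions gained, and 4 of them, inside the gene, were peaks in PB3-ERI-R alone. The largest of these gains, chr2:109952829-109953619, 35.2 kb into the gene, had 23.8 and 17.4 CPM in PB3-ERI-R, against 0.542 and 0.732 CPM in PB3-Parental (log2 fold change 5.01 ± 0.35, adjusted p = 1.66e-08). The start, chr2:109917346-109918315, was open throughout, with 129 and 108 CPM in PB3-ERI-R, against 75.0 and 71.1 CPM in PB3-Parental (0.70 ± 0.13, adjusted p = 0.000243).

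Lgr6, a marker of skin stem cells in mice, had 110 and 104 CPM in PB3-ERI-R, 214 and 200 CPM in PB3-PAC-R, 252 and 191 CPM in PB3-VIN-R, and 268 and 199 CPM in PB3-Parental. The PB3-ERI-R libraries lay under all 6 others (log2 fold change -1.12 ± 0.16, adjusted p = 0.000134). Of its 10 regions 6 fell, 3 were not called and 1 rose. At the start, chr1:135104979-135105598, the values were 4.83 and 4.65 CPM in PB3-ERI-R, against 25.1 and 20.4 CPM in PB3-Parental (log2 fold change -2.26 ± 0.24, adjusted p = 8.07e-07), while a region 0.649 kb before the gene was not called (-0.31), though it was without a scaling factor (-0.67, adjusted p = 0.025). The riser, chr1:135058081-135058513, 46.8 kb into the gene, had 34.6 and 32.1 CPM in PB3-ERI-R, against 0.421 and 0.133 CPM in PB3-Parental (log2 fold change 6.84 ± 0.39, adjusted p = 3.79e-09). Lgr5, the intestinal stem cell marker, had 36.4 and 30.6 CPM in PB3-ERI-R, against 19.7 and 16.8 CPM in PB3-Parental (log2 fold change 0.88 ± 0.16, adjusted p = 0.000677), in a window whose median was -0.72.

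**Figure D3:**
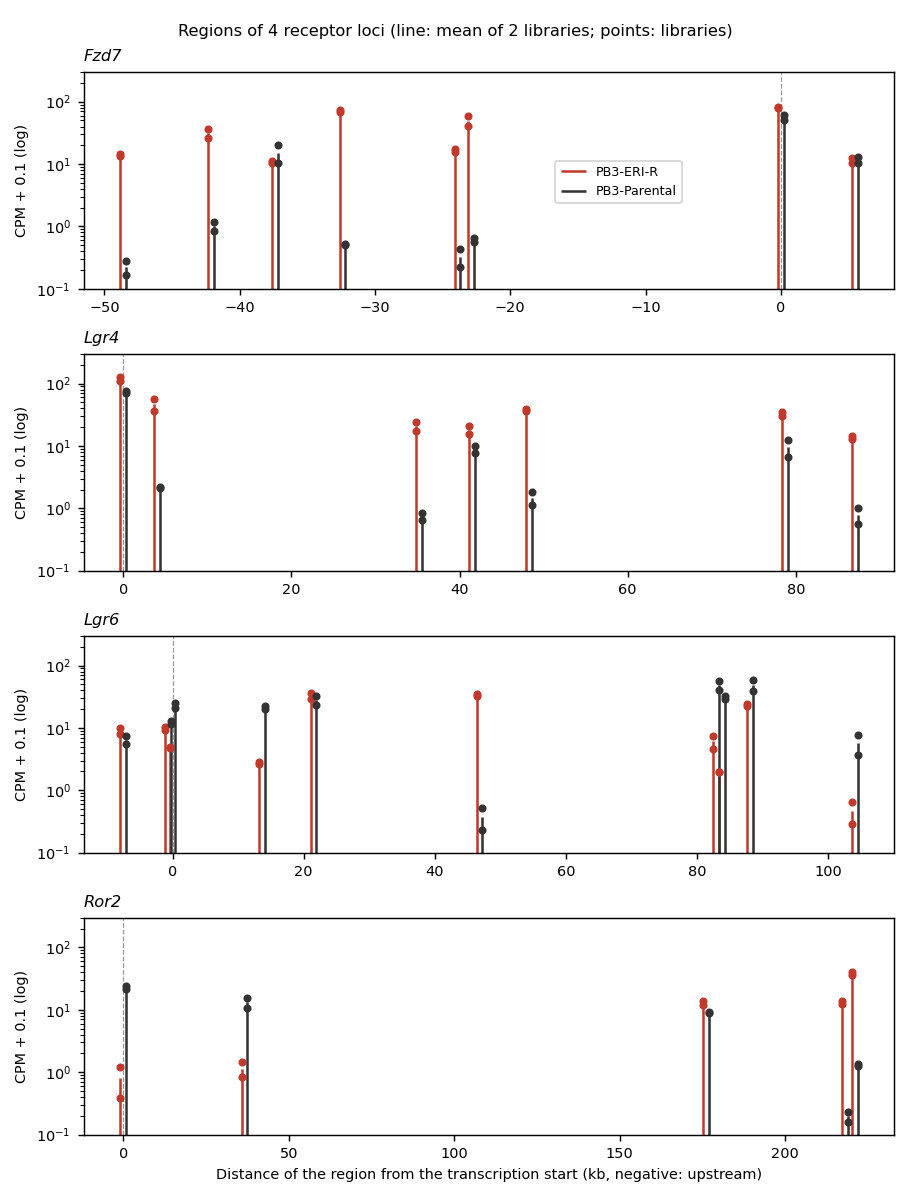
Regions of Fzd7, Lgr4, Lgr6 and Ror2 by distance from the transcription start (kb, dashed line at the start, negative upstream), with CPM + 0.1 on a log axis, points for libraries and stems for the mean of 2 libraries. PB3-ERI-R is drawn just left of PB3-Parental at each region. At Ror2 the start stands at 0.279 and 1.11 CPM in PB3-ERI-R, against 24.0 and 21.8 CPM in PB3-Parental, and at Fzd7 the start is open in both lines while 5 upstream regions are open in PB3-ERI-R.

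The R-spondins, the ligands of these receptors, gave the largest gain of the 40 loci. Rspo1, an R-spondin made by luminal cells of the mouse mammary gland, had 26.1 and 20.6 CPM in PB3-ERI-R, 1.85 and 1.49 CPM in PB3-PAC-R, 1.63 and 0.663 CPM in PB3-VIN-R, and 1.71 and 1.10 CPM in PB3-Parental. The gap was wide next to the spread (log2 fold change 4.04 ± 0.38, adjusted p = 4.87e-06), but it rests on 1 region, chr4:125016252-125016783, 7.15 kb past the gene's 3′ end. Rspo3, an R-spondin of vessels and stroma, had 62.8 and 45.8 CPM in PB3-ERI-R, 10.7 and 8.95 CPM in PB3-PAC-R, 11.3 and 9.24 CPM in PB3-VIN-R, and 7.42 and 8.35 CPM in PB3-Parental (log2 fold change 2.79 ± 0.21, adjusted p = 1.12e-06). The region that rose was chr10:29533407-29534466 inside the gene, with 71.1 and 50.3 CPM in PB3-ERI-R, against 1.08 and 1.53 CPM in PB3-Parental, while a region beyond the gene fell by 3.27 on the log2 scale.

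Rspo2, an insertion site of mouse mammary tumour virus, had 5.01 and 7.24 CPM in PB3-ERI-R, 32.3 and 39.2 CPM in PB3-PAC-R, 30.7 and 28.8 CPM in PB3-VIN-R, and 26.4 and 37.6 CPM in PB3-Parental. All 3 of its regions fell, led by chr15:43158291-43158598 (log2 fold change -2.69 ± 0.41, adjusted p = 3.25e-05), and so did the locus (log2 fold change -2.39 ± 0.24, adjusted p = 7.01e-06). The 93 regions of its 10 Mb window fell with it, with a median of -2.09, and with window offsets the Rspo2 locus changed by -0.39 (adjusted p = 0.184) and that region by -0.69 (adjusted p = 0.155), neither called. A copy number loss of the window was not tested.

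Dkk2, a Dickkopf that binds LRP5 and LRP6, had 7.51 and 7.53 CPM in PB3-ERI-R, 57.3 and 58.4 CPM in PB3-PAC-R, 60 and 44.5 CPM in PB3-VIN-R, and 68.7 and 71.5 CPM in PB3-Parental. Its fall had the smallest adjusted p of the 40 loci (log2 fold change -3.22 ± 0.17, adjusted p = 1.03e-07), and 5 of 6 regions fell. The largest change was at chr3:132211274-132211718, 31.0 kb past the gene, with 0.0929 and 0.775 CPM in PB3-ERI-R, against 17.8 and 21.2 CPM in PB3-Parental (log2 fold change -5.55 ± 0.44, adjusted p = 5.05e-08). Dkk3, a member of the family that does not act on LRP receptors in the same way, was level as a locus (0.08 ± 0.15, adjusted p = 0.692), with 4 regions higher and 3 lower.

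Region by region, 132 of the 176 passed in PB3-ERI-R, 72 higher and 60 lower, which is 75.0% of them and close to the 73.0% of all 57415 regions tested (35.4% higher and 37.6% lower). Within 1 kb of a gene end 19 of 30 passed, 14 higher and 5 lower (63.3%, where 54.7% of all such regions did), and farther out 113 of 146 (77.4%, where 77.9% did). The split by direction of all such regions is not given here, so 14 to 5 is not read as a tilt. Summed per locus, regions near gene ends gave 6 higher and 5 lower of 22. The gains at the starts of Fzd1, Fzd5, Fzd7, Ryk and Wnt1 were not called without a scaling factor. Without a scaling factor, which moves the median log2 change over all regions to -0.29 in place of 0.07, 57 member regions were higher and 69 lower, so the balance of gains and losses rests on the scaling. Both gained and lost regions occurred in 14 of the 33 members with several regions, or 42.4%, and in 41.9% of all loci with several. In the deposited peak lists, 40 member regions (22.7%, with 16.9% of all regions) were peaks in PB3-ERI-R alone, 46 (26.1%, with 26.9%) in the other 3 lines but not PB3-ERI-R, and 47 (26.7%, with 31.4%) in all 4 lines. Ror1 held 6 of the 40, Fzd7 5 and Lgr4 and Wnt7b 4 each, and Lgr6 held 6 of the 46. Peaks were called per line, so these counts carry no replicate error.

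In the fit without a replicate term, the paclitaxel and vinorelbine lines showed no called change at these genes by edgeR. In PB3-PAC-R against PB3-Parental 0 of 40 loci passed edgeR's test (0.107% of all loci did), with 4 at an unadjusted p under 0.05 and 0 by DESeq2, and 0 of 176 regions passed (0.0853% of all), with 9 at an unadjusted p under 0.05. In PB3-VIN-R against PB3-Parental the counts were 0 of 40 loci (0.718% of all), with 7 at an unadjusted p under 0.05 and 2 by DESeq2, and 0 of 176 regions (0.678% of all), with 23 at an unadjusted p under 0.05 and 2 by DESeq2. The locus nearest to a call was Fzd9 in PB3-VIN-R, with 20 and 22.7 CPM, against 30.6 and 32.7 CPM in PB3-Parental (log2 fold change -0.57, adjusted p = 0.117, and 0.0346 by DESeq2). Both PB3-VIN-R libraries lay under both PB3-Parental ones. Lrp6 stood at 181 and 211 CPM in PB3-VIN-R, against 135 and 143 CPM in PB3-Parental (0.50, adjusted p = 0.131). Its region chr6:134450643-134451308, the region nearest to a call, had 44.3 and 51.2 CPM in PB3-VIN-R, against 31.8 and 23.2 CPM in PB3-Parental (0.79, adjusted p = 0.0764). The 221 regions of the Lrp6 window had a median log2 change of 0.29 in PB3-VIN-R and 0.25 in PB3-PAC-R. In PB3-ERI-R that median was 0.09. A copy number change of the Lrp6 window was not tested. The Ror2 start, which all but closed in PB3-ERI-R, had 15.0 and 7.53 CPM in PB3-PAC-R, 11.2 and 8.20 CPM in PB3-VIN-R, and 24.0 and 21.8 CPM in PB3-Parental. Neither difference was called (adjusted p = 0.485, and 0.119 for the vinorelbine line).

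**Figure D4:**
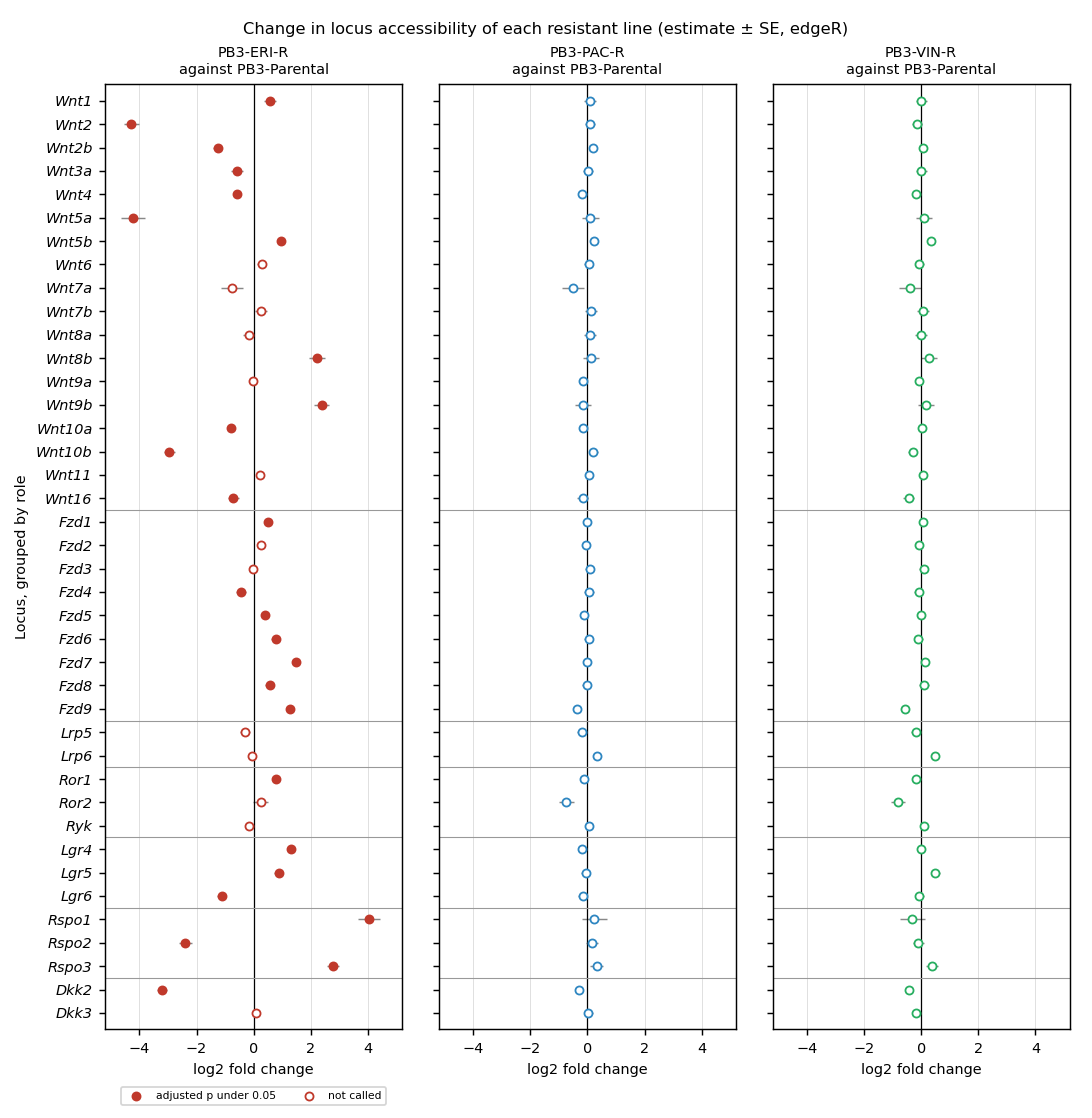
Log2 fold change of each of the 40 loci against PB3-Parental (estimate ± SE, edgeR) in PB3-ERI-R, PB3-PAC-R and PB3-VIN-R, grouped by role, with filled points for an adjusted p under 0.05. Filled points occur in the PB3-ERI-R panel, from -4.28 (Wnt2) to 4.04 (Rspo1), and the other panels stay between -0.81 and 0.50.

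Set directly against the other resistant lines, PB3-ERI-R differed at 29 of 40 loci from PB3-PAC-R (16 higher, 13 lower; 60.3% of all loci differed) and at 27 from PB3-VIN-R (16 higher, 11 lower; 58.7% of all). PB3-VIN-R and PB3-PAC-R differed at 0 of 40 (0.0336% of all), with 2 at an unadjusted p under 0.05. These comparisons share libraries and are not independent of those against PB3-Parental. Of the 27 loci called against PB3-Parental, 23 were called the same way against the other 2 lines as well, 13 higher and 10 lower (52.7% of all loci were called so). The other 4 were Wnt1, Wnt16, Fzd4 and Lgr5. Lgr5 had 36.4 and 30.6 CPM in PB3-ERI-R and 25.3 and 26.2 CPM in PB3-VIN-R (log2 fold change 0.38, adjusted p = 0.0553). Fzd2, Lrp6 and Ror2, not called against PB3-Parental, differed between PB3-ERI-R and each of the other resistant lines. Fzd2 was higher in PB3-ERI-R than in PB3-VIN-R (0.35, adjusted p = 0.0205 by edgeR). Lrp6 was lower in PB3-ERI-R than in PB3-VIN-R (-0.55, adjusted p = 0.00222), and Ror2 was higher (1.06, adjusted p = 0.00533). The median of the Lrp6 window, given above, was also lower in PB3-ERI-R than in PB3-VIN-R. The Ror2 sum includes the outer regions given to it by distance only. At the Ror2 start PB3-ERI-R lay under PB3-VIN-R, and with a limit of 10 kb the Ror2 locus changed by -1.89 against PB3-Parental.

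Per kb of region, the order of openness changed between lines. In PB3-ERI-R the highest were Fzd8 (67.9 CPM per kb), Lgr4 (65.2), Fzd5 (64.7) and Wnt6 (61.4), neighbours that differ by little, and the lowest Wnt5a (1.51), Dkk2 (3.26), Wnt10b (3.53) and Wnt2 (4.02). In PB3-Parental the highest were Wnt2 (76.6 CPM per kb), Lrp5 (54.5), Lgr6 (51.4) and Wnt6 (50.3), and the lowest Rspo1 (2.65), Wnt9b (4.99) and Rspo3 (5.21). The length is that of all consensus regions of a gene, so it is the same in every line.

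Among 74 other genes of the Wnt pathway, listed with earlier results known, 67 loci were tested and 37 changed in PB3-ERI-R, 18 higher and 19 lower (55.2%, near the 58.5% of all loci). Of 16 Dishevelled and destruction complex loci 2 rose and 7 fell, the fallers including Dvl1 (-1.67), a relay of Frizzled signals, Apc2 (-2.08) and Csnk1e (-1.35) on the log2 scale. Of 5 receptor turnover loci 2 rose and 1 fell, and Rnf43, a ubiquitin ligase that removes Frizzled from the surface and is itself a target of the pathway, averaged 84.7 CPM in PB3-ERI-R, against 8.31 CPM in PB3-Parental (log2 fold change 3.36). Of 9 feedback and common target loci 3 rose and 4 fell: Nkd2 rose by 3.79, Twist1 by 0.64 and Ccnd1 by 0.36 on the log2 scale. Axin2, whose expression is the standard readout of beta-catenin signalling, fell by 0.73, Fosl1 by 2.15, Apcdd1 by 1.61 and Cd44 by 1.17 on the log2 scale. Of 13 planar polarity loci 5 rose, Gpc3 by 2.42, Celsr1 by 2.16 and Celsr2 by 1.89, and 3 fell. Of 13 nuclear loci 4 rose and 2 fell, with Lef1 (1.75) and Tcf7l1 (1.55) the largest. Among 8 secreted modulators 2 rose and 2 fell, and none of the 3 secretion genes passed. Gpc3, a heparan sulphate proteoglycan that binds Wnts, was the only one of the 67 called in PB3-VIN-R (log2 fold change 1.15, adjusted p = 0.0143), with 27.2 and 26.9 CPM in PB3-VIN-R, against 11 and 13.5 CPM in PB3-Parental, and none was called in PB3-PAC-R. Its relative Gpc4 had 24.5 and 29.3 CPM in PB3-VIN-R, against 15.9 and 16.7 CPM in PB3-Parental (0.72, adjusted p = 0.107). A copy number change at Gpc3 and Gpc4 was not tested.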

How the data were processed

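The authors deposited raw counts of reads in 57417 consensus regions for 8 libraries, and 1 peak list per line whose columns hold a score, a fold enrichment ratio over local background and a −log10 q-value. The submitters' processing notes name MACS2 2.1.1 among the tools, beside Bowtie2 2.2.6, Picard, deepTools, cutadapt 1.9.1, featureCounts and bcl2fastq 2.20.0.422, and they name GRCm38 and mm10 as builds. Settings, and any shift of reads for the Tn5 cut, are not stated there. Peak lists served only for overlap (1 bp or more), and their scores as an alternative threshold.

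Regions were given to the nearest of 21887 protein-coding genes within 50 kb (48280 regions), and counts were summed per gene. Loci (14903) and regions (57415) were tested with edgeR 4.0.16 in R 4.3.3: filterByExpr (minimum count 10), TMM factors of each table, 1 term per line over all 8 libraries, the quasi-likelihood test and Benjamini-Hochberg adjustment over the whole table, called under 0.05. Values after ± are approximate standard errors of the log2 fold change, taken as its size divided by the square root of the test's F statistic. The common biological coefficient of variation was 0.111 for loci and 0.161 for regions, with 4 residual degrees of freedom. A count of 3, the limit that a count of 0 allows, is worth 0.125 to 0.285 CPM by library before the TMM factors. The CPM values printed above include these factors, and those of the PB3-ERI-R regions (0.8023 and 0.8584) raise the limit there. The lowest PB3-ERI-R region values, such as those near the Wnt5a gene end and at the Ror2 start, lie under or near it. The limit covers counting error only. The scripts were tested on simulated data.

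Replicate numbers of the labels were not used to pair libraries. Alternatives were DESeq2 1.42.0, RLE, loess (span 0.3) or no scaling, offsets per 10 Mb window of at least 20 regions, no filter, a replicate block, other distance limits and each library left out. Members given in full were those called with a log2 fold change of 1 or more either way, each with its called region of largest change. The members and lists were chosen with earlier results of these data known. Promoters come from RefSeq (GRCm38.p6). Not matched were Wnt5a, Wnt7b, Wnt8a, Wnt10a, Fzd2, Fzd3, Fzd6, Fzd8, Lrp5, Lrp6, Lgr5, Rspo2, Rspo3 and Dkk3.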

Additional observations from a re-analysis of the deposited data

Results flagged for a closer look

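The change against PB3-Parental differed between PB3-ERI-R and PB3-PAC-R at 29 of the 40 loci, and between PB3-ERI-R and PB3-VIN-R at 27, each by edgeR's test of the difference itself. Over all loci 60.3% and 58.7% differed. Wnt2, Wnt5a, Wnt10b, Rspo2 and Dkk2 were lower in PB3-ERI-R than in either line, and Fzd7, Fzd9, Lgr4, Rspo1 and Rspo3 higher.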

How the results depend on the processing

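Of the counts of members called in PB3-ERI-R against PB3-Parental, that of loci was 11 of the 22 that could be tested with regions within 1 kb of a gene end alone, where 4271 of 10358 loci passed, and leaving out 1 library gave 22 to 28 loci and 124 to 133 regions. Leaving out 1 library gave 23 to 29 loci against PB3-PAC-R and 23 to 27 against PB3-VIN-R, 0 to 1 regions for PB3-VIN-R against PB3-Parental, and 0 for the other comparisons. DESeq2 called 2 loci and 2 regions in PB3-VIN-R. Libraries of the same replicate number deviated together in most pairs of lines (correlations 0.131 to 0.446) but not clearly in PB3-ERI-R and PB3-Parental (0.073), and no label says what a number shares, so the block stands here as an alternative. With a replicate block, 31 loci and 144 regions were called in PB3-ERI-R, among them Wnt7b (0.25, adjusted p = 0.0076), Wnt11 (0.23, adjusted p = 0.0272), Fzd2 (0.27, adjusted p = 0.018) and Lrp5 (-0.32, adjusted p = 0.0134). Blocked, 1 locus and 2 regions were called in PB3-PAC-R (170 of 14903 loci and 636 of 57415 regions in all), and 5 loci, Fzd9 among them (adjusted p = 0.0173), and 10 regions in PB3-VIN-R (490 loci and 2717 regions in all).

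Signs turned, in PB3-ERI-R against PB3-Parental, in 3 kinds of setting, and the cause was not tested. Over every region within 50 kb of a gene, Wnt1 stood at -0.24, Wnt2b at 0.48, Wnt3a at 0.02, Wnt6 at -0.51, Wnt7a at 0.90, Wnt8a at 0.34, Wnt9b at -1.28, Wnt16 at 0.17, Fzd2 at -0.45, Fzd4 at 0.06 and Dkk3 at -0.62. The turned values of Wnt2b, Wnt6, Wnt7a, Wnt8a, Wnt9b, Fzd2 and Dkk3 were called, and the others were not. With window offsets, Fzd1 stood at -1.01, Fzd3 at 0.80, and the start regions of Fzd9 at -0.77 and Fzd1 at -1.08, each of them called. Near gene ends alone, Fzd9 stood at -0.25, Ror1 at -0.52 and Ror2 at -1.58, and with a 10 kb limit Fzd9 at -0.17 and Ror2 at -1.89. Those of Ror1 and Ror2 were called, and those of Fzd9 were not. With 2 libraries a line, small changes in PB3-PAC-R and PB3-VIN-R may go uncalled.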
